A study of Mus musculus with 2 samples.

Results

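The unfolded protein response and the integrated stress response were examined through 10 genes in liver tumours of mice with and without HLF, or hepatic leukemia factor, which belongs to the PAR bZIP family of transcription factors. The genes were chosen by symbol among probe sets that name exactly 1 gene: Atf4, Atf5, Ddit3, Trib3, Asns and Chac1 of the ATF4-CHOP branch, and Xbp1, Herpud1, Sdf2l1 and Creld2 of the XBP1 and ATF6 branches, without the chaperones. All 10 were found, each with 1 probe set, among 19938 genes so measured. The study compared 1 carcinoma sample from a wild-type mouse with 1 from an HLF-deficient mouse, both given DEN (diethylnitrosamine, a chemical liver carcinogen). Total RNA was hybridised to 1 Affymetrix whole-transcript array per genotype. The deleted part of Hlf, the strain, the age and sex of the mice, the dose of DEN, the number of tumours and any pooling are not given in the sources used here.

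Unfolded protein in the endoplasmic reticulum (ER) is sensed by the kinases PERK and IRE1 and by the membrane-bound factor ATF6. PERK and its sister kinases phosphorylate eIF2alpha, which slows translation in general while translation of Atf4 mRNA goes up; ATF4 then drives genes of amino acid supply and of the CHOP (Ddit3) branch. IRE1 splices Xbp1 mRNA into the form that encodes the active factor, and XBP1 and ATF6 drive genes for folding, secretion and degradation of ER proteins. Hepatocytes secrete large amounts of protein and carry a large ER. A level of Atf4 or Xbp1 mRNA shows neither the translation of the first nor the splicing of the second.

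The promoter sequences are shown first, since short elements in them are how the factors of each branch recognise their targets. RefSeq promoter windows (GRCm38.p6, from 250 bases before to 50 bases after a start) were found for all 10 members, 11 windows in all because Atf5 has an extra start. They were searched on both strands for the amino acid response element bound by ATF4 with C/EBP factors (TGATGNAA), for the ER stress response element (CCAAT, 9 bases of any kind, then CCACG), for the core of the unfolded protein response element (TGACGTGG) and for the PAR bZIP site that HLF can bind (TTANGTAA). The amino acid element was found in 4 of 10 members and in 3.97% of all 32851 windows. The ER stress element was found in 1 member, Creld2, and in 0.119% of all windows. The unfolded protein response core and the PAR bZIP site were found in 0 members; 0.676% and 2.32% of all windows hold them. A match is a match of letters and not a shown binding site, and an element that departs from these letters or lies outside the window is not counted.

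The 250 bases before the start of Asns (chr6:7693210-7693459, minus strand) and of Creld2 (chr15:88819396-88819645, plus strand) are given 5′ to 3′ because these genes had the largest difference of their branch; the capitals mark the amino acid element in Asns and, read on the opposite strand, the ER stress element in Creld2.
Asns: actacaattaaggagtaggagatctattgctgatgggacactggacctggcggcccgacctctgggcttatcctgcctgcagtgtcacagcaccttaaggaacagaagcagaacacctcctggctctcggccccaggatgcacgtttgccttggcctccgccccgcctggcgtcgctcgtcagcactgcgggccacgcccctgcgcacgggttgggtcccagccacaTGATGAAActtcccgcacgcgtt
Creld2: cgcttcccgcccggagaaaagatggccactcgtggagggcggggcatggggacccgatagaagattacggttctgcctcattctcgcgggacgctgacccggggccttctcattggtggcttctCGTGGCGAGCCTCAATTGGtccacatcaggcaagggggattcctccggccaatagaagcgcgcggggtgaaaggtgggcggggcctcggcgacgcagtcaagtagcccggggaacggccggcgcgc

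The amino acid element of the other 3 members is shown with its flanks (in Trib3, where it lies after the start, with the flank before it), so that it can be set beside that of Asns; in each the capitals read TGATGNAA on the opposite strand. It began 193 bases before the start in Chac1 (chr2:119351034-119351071, plus strand), 112 bases before it in Herpud1 (chr8:94386302-94386339, plus strand) and at base 15 after it in Trib3 (chr2:152344039-152344061, minus strand).
Chac1: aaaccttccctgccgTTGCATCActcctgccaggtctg
Herpud1: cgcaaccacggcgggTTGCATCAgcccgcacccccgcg
Trib3: cagattagctcaggtTTACATCA

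Levels are the authors' RMA values (log2), and a difference is the HLF-deficient minus the wild-type level. Each genotype had 1 array, so that no p-value or error between tumours exists, and genes were counted by size alone, as past 2-fold where the log2 difference was 1 or more either way. Genes at or above the floor of expression (2.96, the 95th percentile of probe sets of chemoreceptor genes) on at least 1 array were compared, 14649 in all, and all 10 members were above it on both arrays. As a technical guide, the difference of a single probe set had an SD of 0.24, from 740 genes with more than 1 probe set; it does not cover the spread between mice or tumours. Hlf itself stood at 5.13 (log2) in the wild-type tumour and at 3.79 in the other, which goes with the genotype labels. The hepatocyte markers were high on both arrays, 10 of 10 above the floor, with a median difference of 0.06. Tumour markers differed: Afp, Gpc3, Igf2 and Cd24a, 4 of 5 measured, were higher by 2-fold or more in the HLF-deficient tumour.

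None of the 10 members passed 2-fold, where 1.86% of all genes compared did (1.49% higher, 0.362% lower). As deposited, 9 of the 10 were higher in the HLF-deficient tumour, where 58.0% of all genes compared were. Their median difference was 0.31, against 0.07 over all genes compared. In bulk tissue, fewer cells of a type and less RNA per cell cannot be told apart. The largest differences were in Asns, the asparagine synthetase, and Creld2, a secreted ER stress protein, and the smallest in Chac1 and Atf5. As deposited, 2 members, Asns and Creld2, differed by more than 0.48, which is 2 times the SD of a single probe set, and 4 differed by less than 1 SD. Over all genes compared, the 5th percentile of the difference was -0.51 and the 95th 0.645. At least 5% of all genes compared were thus past 0.48 in each direction. With the arrays centred 3 members were past 0.48, Xbp1 among them, and after quantile normalization or removal of a trend with level 1 was, Asns.

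**Figure D1:**
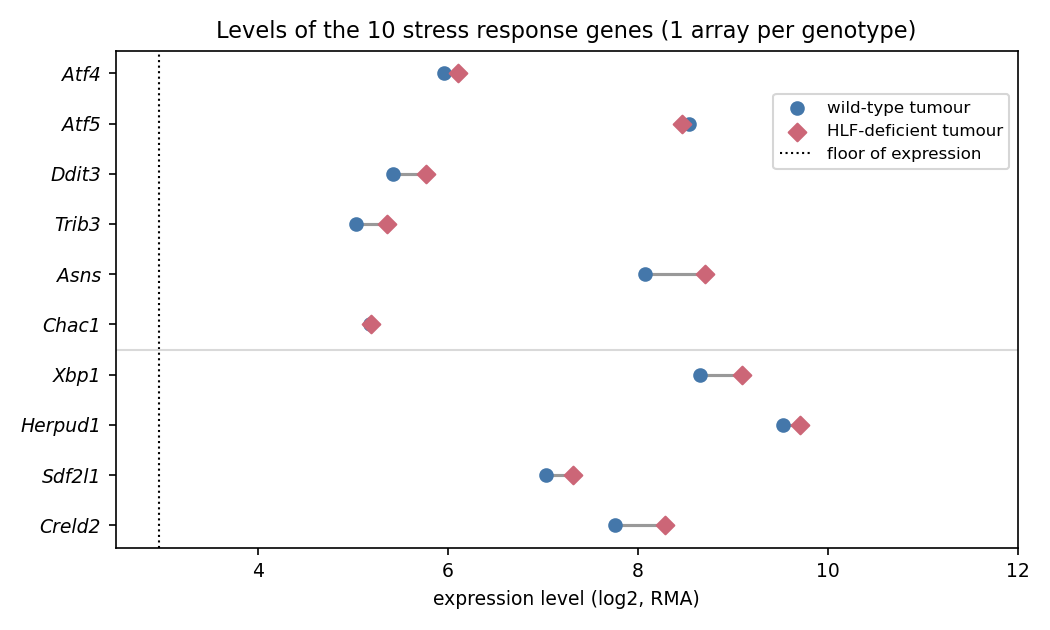
Log2 expression level (x axis) of each of the 10 genes in the wild-type tumour (circles) and the HLF-deficient tumour (diamonds), 1 array each, with the floor of expression of 2.96 as a dotted line; the upper 6 genes belong to the ATF4-CHOP branch. The diamonds lie to the right of the circles in 9 genes and to the left in Atf5; levels of different genes come from different probes and are not to be compared with each other.

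Among the transcription factors of the ATF4-CHOP branch, Atf4, the factor at its head, had log2 levels of 5.96 (wild-type) and 6.10 (HLF-deficient), a difference of 0.14. That is within the SD of a single probe set. Atf5, a bZIP factor that also takes part in the mitochondrial stress response, had log2 levels of 8.54 and 8.46, and its difference of -0.08 was the only negative one. Ddit3, which encodes the pro-apoptotic factor CHOP, had log2 levels of 5.42 and 5.76, a difference of 0.34 or 1.27-fold. As deposited, CHOP mRNA was the only one of these 3 factors with a difference beyond the SD of a single probe set. This did not hold under other scalings: Ddit3 was at 0.19 after quantile normalization and 0.21 after removal of a trend with level, both within that SD, and Atf4 at 0.26 with the arrays centred, beyond it.

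The targets of the branch ranged more widely. Asns had log2 levels of 8.07 (wild-type) and 8.71 (HLF-deficient), a difference of 0.64 or 1.55-fold, and 94.8% of the genes compared had a lower difference. It was the only member past a rule of 1.5-fold, which 6.35% of all genes passed upwards and 3.13% downwards. Trib3, a pseudokinase induced by ATF4 and CHOP that restrains ATF4 in turn, had log2 levels of 5.03 and 5.36, a difference of 0.33 or 1.26-fold. Chac1, a glutathione-degrading enzyme of the same branch, was level at 5.17 and 5.18, a difference of 0.01. Asns, Trib3 and Chac1 all hold the amino acid element printed above, and their differences ran from 0.01 to 0.64.

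In the XBP1 and ATF6 branches all 4 members were higher in the HLF-deficient tumour, with a median of 0.37. This median was 0.23 both after quantile normalization and after removal of a trend with level. The 6 members of the ATF4-CHOP branch had a median of 0.24, which came to 0.07 and 0.10, with 3 of 6 above 0 under each. Xbp1, the factor itself, had log2 levels of 8.65 and 9.09, a difference of 0.44 or 1.36-fold. Creld2 had log2 levels of 7.76 and 8.28, a difference of 0.53 or 1.44-fold, and 91.5% of the genes compared had a lower difference. Sdf2l1, a component of the chaperone complex of the ER lumen, had log2 levels of 7.03 and 7.32, a difference of 0.29. It came to 0.13 under both of those scalings, within the SD of a single probe set. Herpud1, an ER membrane protein of the degradation machinery, had log2 levels of 9.52 and 9.71, a difference of 0.18 that lay within the SD of a single probe set. Creld2 had the highest difference of the 4 and Herpud1 the lowest.

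The differences depended on how the arrays were scaled, and the direction of 3 members turned with it. Centring each array on its median adds 0.12 to every difference, so that 10 of 10 members were positive, as were 70.5% of all genes compared, and Atf5 came to 0.05. Quantile normalization and removal of a lowess trend of the difference on level each left 7 of 10 positive, where 52.9% and 54.4% of all genes compared were. Atf4 came to -0.06 and -0.02, Atf5 to -0.16 and -0.20 and Chac1 to -0.09 and -0.08. Under both, the members' median was lower: 0.16 after quantile normalization and 0.17 after the lowess step, against 0.02 and 0.03 for all genes compared. Trib3, Asns, Xbp1 and Creld2 lay above the upper quartile of all genes compared under all 4 scalings. Ddit3 and Sdf2l1 did so as deposited and with the arrays centred, and Atf5 lay below the lower quartile of -0.16 after the lowess step. After the lowess step Asns stood at 0.51, Creld2 at 0.39, Xbp1 at 0.33 and Trib3 at 0.24.

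**Figure D2:**
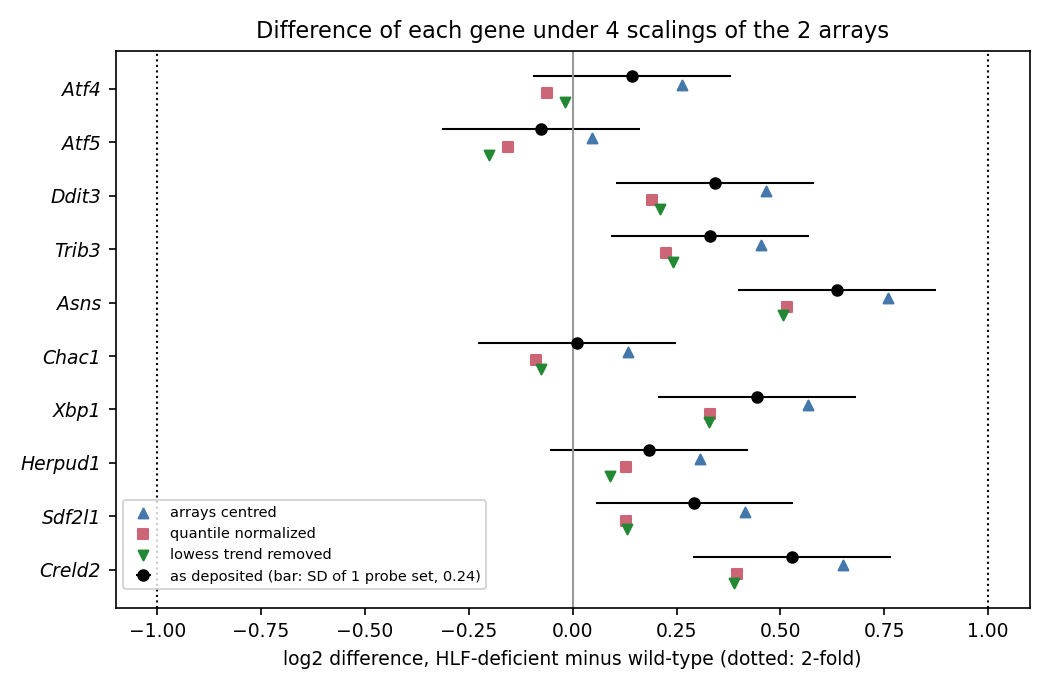
Log2 difference between the tumours, HLF-deficient minus wild-type (x axis), of each of the 10 genes as deposited (circles, with a bar of 1 SD of a single probe set, 0.24) and under 3 other scalings; dotted lines mark 2-fold. Asns, Creld2, Xbp1, Ddit3, Trib3, Sdf2l1 and Herpud1 are right of 0 under all 4 scalings, while Atf4, Atf5 and Chac1 lie on both sides of it.

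Differences between members do not depend on a shift of a whole array. Of the 45 pairs of members, 1 differed by more than 0.67, which is 2 times the SD of 0.34 expected from probe sets: the difference of Atf5 minus that of Asns was -0.71. Among 45 pairs, 1 past such a limit can come from the noise of probe sets alone. Asns lay above Chac1, its fellow target in the branch, by 0.63, which is under the limit; this pair was picked after its values were seen. These numbers compare changes of probe sets on 2 arrays and have no replicate check.

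The rest of the pathway was described from 8 lists of genes. Of their 96 genes compared, 2 were higher by 2-fold or more and 0 lower, where 1.49% of all genes compared were higher and 0.362% lower. Slc7a11 was below the floor on both arrays and left out, and Mbtps2, Eif2s1, Pycr1, Aars, Gdf15, Sec61g and Kdelr2, which no probe set names alone, were not analysed here. Values were above 0 for 83 of the 96, or 86.5%, where 58.0% of all genes compared were above 0; after the lowess step the shares were 64.6% and 54.4%. The median over the 96 was 0.17 as deposited and 0.07 after the lowess step.

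The sensors and the eIF2alpha kinases and phosphatases had a median of 0.30, or 0.12 after quantile normalization and 0.14 after the lowess step. As deposited 10 of 10 were above 0, and 9 of 10 after the lowess step. Eif2ak3, which encodes PERK, had log2 levels of 5.56 and 6.24, a difference of 0.68, the highest of this list. The lowest was Ppp1r15b, the constitutive subunit of the eIF2alpha phosphatase, at 0.02, and its second probe set gave -0.10. No gene of the list passed 2-fold.

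Among the effectors of ATF4, amino acid synthesis and transport genes had a median of 0.14 over 13 genes compared, with 0 past 2-fold. This median was -0.02 after quantile normalization. Its highest value was in Slc3a2, the heavy chain shared by several amino acid transporters, with log2 levels of 8.34 and 9.11, a difference of 0.77. Its lowest was in Slc7a1, a transporter of cationic amino acids, at -0.17. The cytosolic aminoacyl-tRNA synthetases had a median of 0.24 over 11 genes, from -0.11 in Cars to 0.50 in Sars, again with 0 past 2-fold; the median was 0.13 after quantile normalization and 0.12 after the lowess step.

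The list of other ATF4-CHOP targets had the highest median of the 8, 0.52 over 14 genes, and 0.37 after the lowess step. Atf3, a bZIP factor that is also an immediate early gene, was the only one past 2-fold, with log2 levels of 5.69 and 7.70, a difference of 2.01. The lowest was Bbc3, the pro-apoptotic BH3 protein PUMA, at -0.21. The immediate early genes Jun and Fos, which are no targets of this pathway by definition, differed by 1.63 and 2.27, and the heat shock gene Hspa1a by 2.66; their part in the value of Atf3 was not tested.

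**Figure D3:**
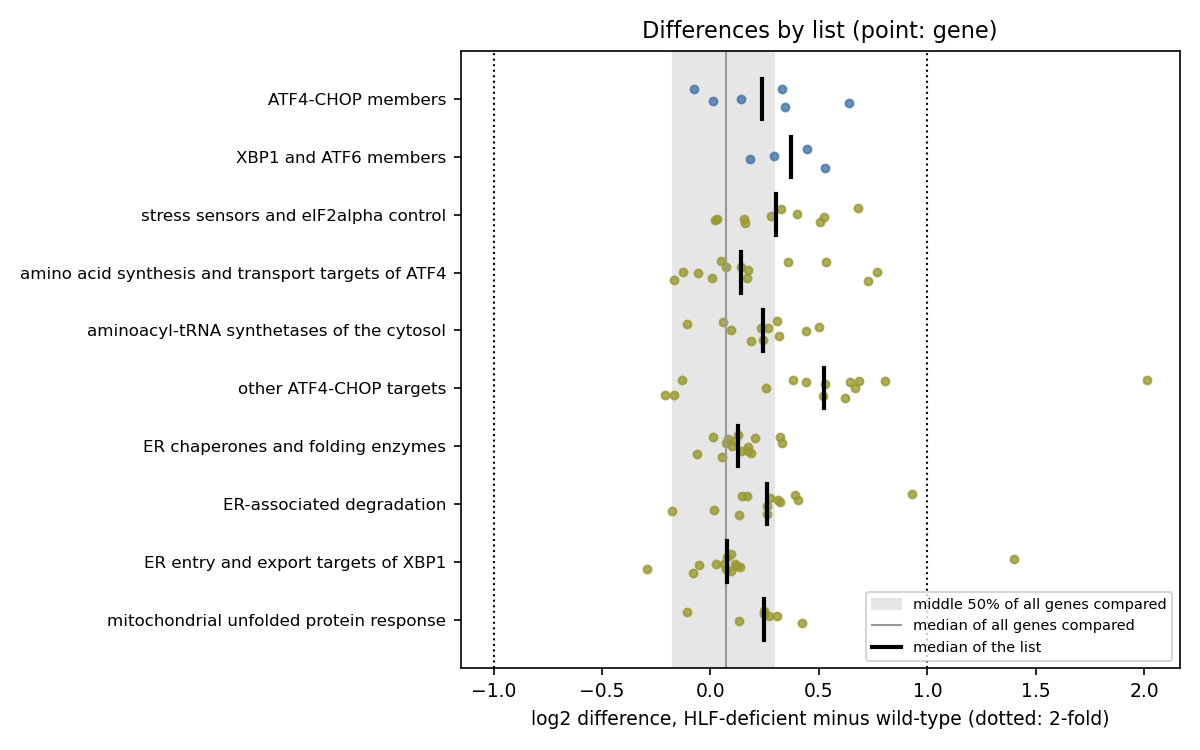
Log2 difference between the tumours, HLF-deficient minus wild-type (x axis), of each gene above the floor, by list; black bars are list medians, the grey band is the middle 50% of all genes compared, from -0.17 to 0.29, and dotted lines mark 2-fold. Atf3 at 2.01 and Kdelr3 at 1.40 are the genes beyond 2-fold. The medians of 6 of the 8 pathway lists lie inside the grey band, and those of the stress sensors (0.30) and of the other ATF4-CHOP targets (0.52) lie above it. Of the members, the median of the ATF4-CHOP branch (0.24) lies inside the band and that of the XBP1 and ATF6 branches (0.37) above it.

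On the XBP1 and ATF6 side, the ER chaperones and folding enzymes had a median of 0.13 over 15 genes, which came to 0.05 after quantile normalization and 0.014 after the lowess step. Their values ran from -0.06 in Manf, a secreted ER stress protein, to 0.33 in Dnajb9, a co-chaperone. Hspa5, which encodes BiP, the main chaperone of the ER lumen, had log2 levels of 10.55 and 10.87, a difference of 0.32. The ER stress element was found in 6 of the 12 genes of this list that have a window, where 1 of the 4 XBP1 and ATF6 members has it. The genes of ER-associated degradation had a median of 0.26 over 13 genes, or 0.09 after quantile normalization and 0.11 after the lowess step, with the lowest value in Selenos, at -0.18, and the highest in Derl3, a channel component of that pathway. Derl3 had log2 levels of 4.31 and 5.24, a difference of 0.93, and passed 2-fold at 1.05 with the arrays centred.

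Genes of ER entry and export had a median of 0.08 over 13 genes, which turned to -0.05 after quantile normalization and -0.06 after the lowess step. Kdelr3, a receptor that returns escaped proteins to the ER, was the only gene of this list past 2-fold; its level was 4.35 in the HLF-deficient tumour and 2.95, just under the floor, in the wild-type one, so that it was at least 2.63-fold higher. Sec61b, a subunit of the translocation channel, was lowest at -0.29, and its other probe sets gave -0.21 and -0.17. The mitochondrial unfolded protein response, to which Atf5 is linked, had a median of 0.25 over 7 genes, from -0.11 in Dnaja3 to 0.42 in Yme1l1; the median was 0.08 after quantile normalization and 0.10 after the lowess step.

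Markers of other cell types also differed between the tumours. Plasma cells and pancreatic acinar cells have a strong XBP1 programme, so their markers were read beside Xbp1, Creld2 and Derl3. Of 9 measured B and plasma cell markers, 0 passed 2-fold, and Cd79a and Ms4a1 were below the floor on both arrays. The 7 others had a median difference of -0.12, with 3 above 0, Derl3 among them. The summed linear level was 310 (wild-type) against 307 (HLF-deficient). Sdc1, with the highest log2 levels of the list (7.46 and 7.34), weighs most in this sum, and Derl3 is itself part of it. The sum thus mostly follows Sdc1 and is no measure of the share of plasma cells, which was not tested. Of 7 measured acinar markers, Cpb1, Cel, Prss2 and Ptf1a were below the floor on both arrays and the summed linear level was 56.5 (wild-type) against 46.7 (HLF-deficient). These sums run over all measured markers of a list, so they include those below the floor.

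Endothelial markers had a median of 0.66 over 8 genes, of which 6 were above 0, and a summed linear level of 570 (wild-type) against 876 (HLF-deficient). Lyve1 was the only one past 2-fold at 1.21, and Stab2 and Tek were at -0.06 and -0.13. Macrophage markers had a median of 0.26 over 9 genes, of which 6 were above 0, and a summed linear level of 528 and 585. Cd68 was the only one past 2-fold at 1.53, and the Kupffer cell gene Clec4f was the lowest at -0.37. Stellate cell and fibroblast markers had a median of 0.28 over 8 genes, of which 7 were above 0. They summed to 585 and 683, with 0 of 8 past 2-fold. The part of these cells in the differences of the 10 members was not tested. Cholangiocyte markers summed to 77.3 and 73.5 (Cftr below the floor on both arrays), neutrophil markers to 91.9 and 74.3 (Ly6g below it) and T and NK cell markers to 75.9 and 65.5 (Cd3d, Ncr1 and Klrb1c below it), with 0 genes past 2-fold in each.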

How the data were processed

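The deposited values are log2 expression made with RMA in Affymetrix Expression Console, per the submitters' processing notes. The log2 scale was read from the values (0.25 to 12.7 and 0.37 to 12.7), and the set of arrays normalized together is not known from the sources used here. RMA compresses differences near background. Of 35556 probe sets, 21789 name exactly 1 gene in the platform annotation, 1621 several and 12146 none; the first kind was used. For a gene with several, the brightest on average was taken. Listed symbols were matched through gene IDs of RefSeq (GRCm38.p6), which held 21698 of the 21789. The floor used 1245 probe sets of olfactory, vomeronasal and bitter taste receptor genes. Named genes are the 10 members, Hlf, of each pathway list those past 2-fold and the highest and lowest, and of each marker list those past 2-fold or below the floor on both arrays; Jun, Fos, Hspa1a, Hspa5, Clec4f, Stab2, Tek, Sdc1 and the genes named for a motif were named outside this rule, after their values were seen. The members and lists were chosen with earlier results of these data known. The count and scaling steps were tested on simulated data. Python 3.11.15, pandas 2.3.3 and statsmodels 0.14.6 (lowess, span 0.4) were used.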

Additional observations from a re-analysis of the deposited data

How the results depend on the processing

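No paired analysis was possible because each genotype had 1 array, and for the same reason no array could be left out. Most of the counts that moved did so with the rule of size. With 1.5-fold in place of 2-fold, 1 of the 10 members was past it, as were 1 of 10 sensor genes and 2 of 13 amino acid genes. So were 6 of 14 other ATF4-CHOP targets and 1 of 13 genes of ER-associated degradation, all of them higher. Over all genes compared, 930 (6.35%) were higher and 458 (3.13%) lower by this rule. With 4-fold, 0 genes of ER entry and export were past it, and 27 were higher and 9 lower over all. With the arrays centred, 1 gene of ER-associated degradation passed 2-fold and 32 genes over all were lower, against 53 as deposited. The other 188 counts stayed within 1.5 times their value or at 0. All 80 values of members and 80 medians, under the scaling, probe set and floor alternatives, moved by less than the SD of a single probe set. For the members, the probe set and floor alternatives could not change a value, since each had 1 probe set and was above the floor on both arrays. Centring adds 0.12 to each, less than that SD. The SD is also a wide limit for a median: that of the members fell from 0.31 to 0.16 after quantile normalization. Moves within the SD include sign changes near 0 of Atf4, Atf5 and Chac1 and of the medians of amino acid and of ER entry and export genes. The number of arrays limits the precision.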

Other observations

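The promoter motifs were also set against all genes compared that have a window, as a description without a test. The 317 genes with the amino acid element had a median difference of 0.07, and the 11252 without it 0.09. Among the pathway lists, the 9 genes with it (Atf3, Fgf21, Gars, Iars, Jdp2, Nupr1, Tars, Vldlr and Yars) had a median of 0.32 and the 66 without it 0.17. After the lowess step these were 0.16 and 0.08. Of the 9, 5 (Atf3, Fgf21, Jdp2, Nupr1 and Vldlr) are from the other ATF4-CHOP targets, the list with the highest median, 0.52. The element and the list cannot be told apart in this contrast. The 19 genes with the ER stress element had a median of 0.21, against 0.08 for the 11550 without it, or 0.11 against 0.04 after the lowess step. Of the 19, 0 passed 2-fold, where 1.43% of the others were higher and 0.329% lower. Within the pathway lists the medians were 0.19 for the 8 genes with it and 0.19 for the 67 without it. These 19 included Creld2 and Alg12.

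The PAR bZIP site, which none of the 10 members holds in its window, was found in 215 genes compared. Their median difference was 0.10, against 0.08 for the 11354 genes without it, and the order turned after the lowess step, with 0.03 against 0.04. In the pathway lists 3 genes hold it, Jdp2 at -0.13, Os9 at 0.01 and Sec61b at -0.29. Their median of -0.13, which is the value of Jdp2, stood against 0.23 for the 72 without it. After the lowess step these were -0.13 and 0.10. A median over 3 genes says little about the site. Of the 215, 3.26% were higher and 1.40% lower by 2-fold or more, against 1.39% and 0.308% of the others; these shares rest on 7 and 3 genes.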
